A study of Mus musculus with 2 samples.

Results

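Mitotic microglia were 68 of 18796 microglia, drawn from 19305 cells, in 2 single-cell libraries of mouse hippocampus. A barcode counted as a cell at 1500 or more unique molecular identifiers (UMIs, 1 per captured RNA molecule), at least 200 genes and at most 10% mitochondrial UMIs, and as a microglia at 50 or more UMIs over the 7 genes C1qa, C1qb, C1qc, Csf1r, P2ry12, Cx3cr1 and Tmem119. A microglia was mitotic when it held 3 or more UMIs over the 12 genes Mki67, Top2a, Birc5, Ube2c, Cdk1, Ccna2, Ccnb1, Ccnb2, Cenpf, Prc1, Nusap1 and Hmmr. The members were thus chosen by the UMIs of these 12 genes, so their values are a description and carry no test.

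The FGR library came from a mouse model of fetal growth restriction and the Control library from its control. Both were made at postpartum 3 weeks from animals of the genotype Tmem119-tdTomato+/-, which carry a red fluorescent reporter at Tmem119, a surface protein gene of microglia. Cells of both groups were sorted as Tmem119-positive (spelled Tem119 in the labels) before capture by 10x 3′ droplets, so a microglia without that signal would not be in the data. The sources used here give neither how growth was restricted nor how many animals were pooled into a library. Each group is 1 library, so nothing between FGR and Control has a replicate check. The intervals below are exact 95% intervals and cover counting error only.

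Microglia are the resident macrophages of the brain. They renew by division within the tissue, and their number in the hippocampus grows in the first weeks after birth. A dividing cell copies its DNA in S phase with the help of the MCM helicase, PCNA and new histones. It then raises cyclins A and B with CDK1, builds a spindle of tubulin and kinesins, and is held at the spindle checkpoint until APC/C with CDC20 lets the chromosomes part. Most transcripts of the late steps are nearly absent outside the cell cycle, which makes them sharp marks of dividing cells.

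The 2 libraries held mitotic microglia at close shares. There were 29 among 8298 FGR microglia, or 0.349% (0.234 to 0.502%), and 39 among 10498 Control microglia, or 0.371% (0.264 to 0.508%). The ratio of the FGR share to the Control share was 0.941, with an interval of 0.561 to 1.56, so counting error alone allows a lower or a higher share in FGR. With each cell thinned to 1500 UMIs and 2 or more UMIs of the 12 genes required, no microglia was too shallow to enter, and the shares were 0.265% (22 cells) in FGR and 0.324% (34 cells) in Control. These are shares of sorted cells and do not say how many the tissue held.

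**Figure D1:**
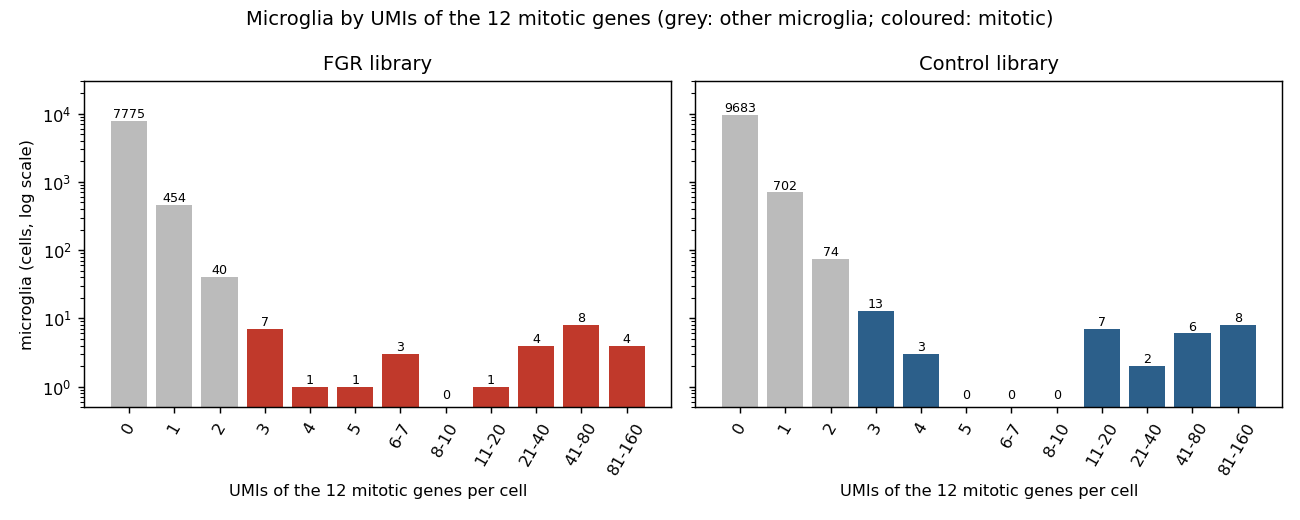
Number of microglia (log axis) by UMIs of the 12 mitotic genes per cell, FGR library left and Control library right; grey bars are other microglia and coloured bars are mitotic microglia, with the count over each bar. In both libraries the coloured bars fall into 2 runs with no cell at 8 to 10 UMIs, and 17 FGR and 23 Control cells stand to the right of that gap.

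The UMIs of the 12 genes fell into 2 runs. No UMI was read in 7775 FGR and 9683 Control cells, and 1 UMI in 454 FGR and 702 Control cells. Just outside the limit, 2 UMIs were read in 40 FGR and 74 Control cells, and just inside it, 3 UMIs in 7 FGR and 13 Control cells. No cell of either library held 8 to 10 UMIs. Above the gap, 17 FGR cells held 19 to 153 UMIs (median 49) and 23 Control cells held 11 to 138 UMIs (median 60). The split at 8 UMIs was chosen after these counts were seen, and both runs are described below as the high and the low run. The high run alone was 0.205% (0.119 to 0.328%) of FGR microglia and 0.219% (0.139 to 0.329%) of Control microglia, a ratio of 0.935 (0.469 to 1.83).

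The high run carried many mitotic genes that the rule did not use, and most of the low run did not. A set of 75 further genes of the spindle, the kinetochore and the mitotic kinases had 30 or more UMIs in 17 of 17 FGR cells and 23 of 23 Control cells of the high run. Among other microglia, 4 of 8269 FGR cells and 4 of 10459 Control cells reached that number. In the low run it was reached by 3 of 12 FGR cells and 0 of 16 Control cells. Of the low run, 5 FGR and 9 Control cells held UMIs of only 1 of the 12 genes. That gene was Cdk1 in 3 FGR and 4 Control cells and Cenpf in 1 FGR and 4 Control cells. Cdk1 had 6.37 CPM in other FGR microglia and 8.26 CPM in other Control microglia (CPM, counts scaled to a total of 1e6 UMIs over a group of cells). Values of the high run alone are given beside the lists and genes described most fully.

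Each member held at least 55 (FGR) or 64 (Control) UMIs of the 7 microglial genes, with medians of 150 and 153, against 147 and 136 in other microglia, but the rule itself sets the minimum of these sums. Outside the rule, the microglial marker Siglech, a sialic acid-binding lectin gene, had 609 CPM in FGR members and 1178 CPM in other FGR microglia, and 901 CPM in Control members and 1244 CPM in other Control microglia. Markers of lymphocytes, oligodendrocyte progenitors, neurons and fibroblasts were at 0 UMIs in the members of both libraries. Border macrophage markers (Mrc1, Pf4, Cd163, Lyve1 and Ms4a7) summed to 145 CPM in FGR members and 39.5 CPM in other FGR microglia, and to 99.3 CPM in Control members and 41.3 CPM in other Control microglia. In FGR, 19 of those 34 UMIs came from a single cell of the low run. Monocyte and neutrophil markers summed to 46.8 and 5.58 CPM in FGR members and others, and to 31.9 and 9.58 CPM in Control members and others. Over the remaining 5 lists (oligodendrocyte, astrocyte, neural progenitor, endothelial and red blood cell) the sums reached at most 204 CPM in FGR members and 335 CPM in other FGR microglia, and at most 248 CPM in Control members and 425 CPM in other Control microglia. The part of these cell types in any result below was not tested.

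Depth and free RNA were compared as well. Members held more UMIs than other microglia, with medians of 6321 and 4970 in FGR and of 7071 and 4677 in Control. Thinned to 1500 UMIs, members and others showed 906 and 888 genes per cell in FGR and 958 and 915 in Control, against 2663 and 2083, and 2596 and 2063, before thinning. No doublets were removed. Of the barcodes that failed the microglial limit, 2 of 320 in FGR (0.625%, 0.0758 to 2.24%, median 2062.5 UMIs) and 1 of 189 in Control (0.529%, 0.0134 to 2.91%, median 2025 UMIs) held 3 or more UMIs of the 12 genes. These shares are not below those of the microglia, but each of the 3 barcodes held 8 or more UMIs, and other cell types that divide are not known to lack the genes. Free RNA, taken from barcodes of 10 to 100 UMIs, held the 12 genes at 33.6 CPM in FGR and 40.2 CPM in Control. The libraries shared 31 barcodes with 1500 or more UMIs.

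The 12 rule genes themselves rested on few transcripts outside the members. They summed to 4415 CPM in FGR members and 12.1 CPM in other FGR microglia, and to 5173 CPM in Control members and 16.1 CPM in other Control microglia. Mki67, the proliferation antigen that coats mitotic chromosomes, was read in 23 of 29 FGR members with up to 43 UMIs, and in 27 of 39 Control members with up to 21 UMIs. Top2a, the enzyme that untangles copied DNA, had 873 CPM in FGR members and 0.79 CPM in other FGR microglia, and 1014 CPM in Control members and 0.91 CPM in other Control microglia. Nusap1, a spindle microtubule protein, had 238 CPM in FGR members and 323 CPM in Control members, against 0.02 CPM in other FGR microglia and 0.04 CPM in other Control microglia. Cdk1, the kinase that drives entry into mitosis (chr10:69335146-69352938, minus strand, mm10, GENCODE M21), was the rule gene with the smallest ratio, 60.2 in FGR and 48.5 in Control.

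Genes were then counted by size, not by a test. A gene was measured when it had at least 100 CPM in members or in other microglia, and was past the limit when the whole interval of its ratio lay beyond 1.5-fold. In FGR, 216 of 2036 measured genes (10.6%) were past the limit as higher in members and 55 (2.7%) as lower. In Control, 188 of 2081 (9.03%) were higher and 12 (0.577%) lower. In the high run alone the higher genes were 325 in FGR and 307 in Control, and the lower genes in Control were 62. With 5 or more UMIs of the 12 genes required (21 FGR and 23 Control cells), the lower genes were 72 in FGR and 62 in Control. Of 1825 genes measured in both libraries, 138 (7.56%) were higher and 5 (0.274%) lower in both. The 138 were 63.9% of the higher genes of FGR and 73.4% of those of Control. Levels below are given as sums over whole lists. A gene that reaches 100 CPM only in the members had to be higher. List counts of members against others therefore use genes that reach 100 CPM in other microglia. Over all 1614 genes that reached it in other FGR microglia, 2.85% were higher and 3.41% lower in FGR members. Over all 1682 that reached it in other Control microglia, 1.49% were higher and 0.713% lower in Control members.

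Genes of mitosis outside the rule were higher in every one of the 3 lists. Kinetochore and checkpoint genes summed to 2176 CPM in FGR members and 104 CPM in other FGR microglia, and to 2411 CPM in Control members and 110 CPM in other Control microglia. None of the 21 reached 100 CPM in other microglia. Mitotic kinase and APC/C genes summed to 3146 CPM in FGR members and 222 CPM in other FGR microglia, and to 3744 CPM in Control members and 263 CPM in other Control microglia. Spindle and cytokinesis genes summed to 6152 CPM in FGR members and 742 CPM in other FGR microglia, and to 7116 CPM in Control members and 880 CPM in other Control microglia. The ratios of these 3 lists to other microglia in the high run were 31.4, 20.8 and 11.6 in FGR and 35.3, 22.9 and 12.4 in Control. In the low run they were smaller. For the kinase list they were 2.50 (1.83 to 3.32) in FGR and 0.826 (0.529 to 1.23) in Control.

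Cdc20, the APC/C activator (chr4:118432901-118437352, minus strand), had 33 UMIs in 15 of 29 FGR members and 67 UMIs in 18 of 39 Control members. Its ratio to other microglia was 271 (154 to 483) in FGR and 322 (214 to 490) in Control. Plk1, a kinase of spindle poles and cytokinesis, had 132 CPM in FGR members and 0.23 CPM in other FGR microglia, and 145 CPM in Control members and 0.13 CPM in other Control microglia, all of it in the high run. Aurkb, the kinase of the chromosomal passenger complex, had a ratio of 183 (108 to 309) in FGR and 195 (128 to 299) in Control. Bub1, a spindle checkpoint kinase, had 17 UMIs in FGR members and 35 in Control members and none in other microglia of either library. With a floor of 3 UMIs standing for the 0 over all other microglia, its ratio was 1068 in FGR and 2184 in Control. These values depend on that floor and are not lower limits of an interval. Stmn1, which binds tubulin dimers, was also expressed by other microglia, and had 1035 CPM in FGR members and 56.5 CPM in other FGR microglia, and 1220 CPM in Control members and 50.3 CPM in other Control microglia.

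**Figure D2:**
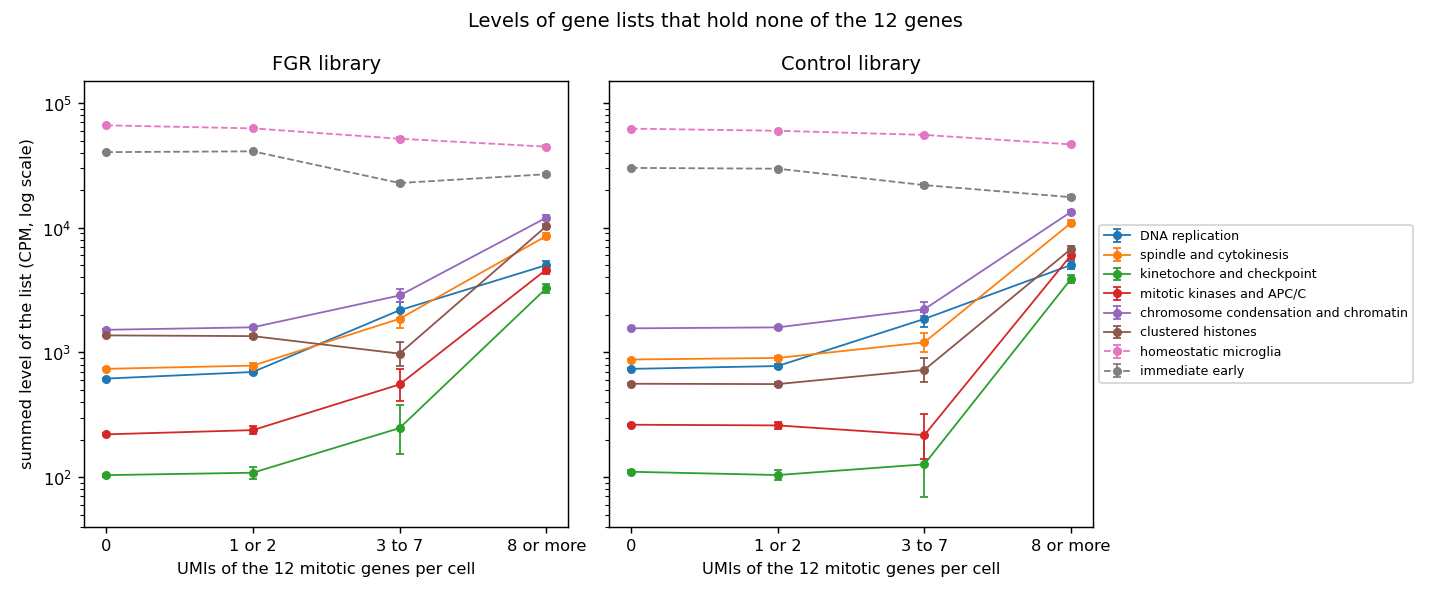
Summed level of 8 gene lists (CPM, log axis) in microglia with 0, 1 or 2, 3 to 7 and 8 or more UMIs of the 12 mitotic genes, FGR library left and Control library right; bars are 95% Poisson intervals. Solid lines (cell cycle lists) climb at 8 or more UMIs, where the kinetochore list reaches 3267 CPM in FGR and 3881 CPM in Control, and dashed lines (homeostatic and immediate early genes) run lower there than at 0 UMIs.

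The promoters of these genes are shown because mitotic genes as a group are known to share short promoter elements. The cell cycle genes homology region, TTTGAA, is bound by the MuvB complexes DREAM and B-MYB-MuvB, and CCAAT is bound by NF-Y. Sequences were taken from RefSeq (GRCm38.p6) upstream of the annotated start, ended before the first GENCODE M21 exon base, and are written 5′ to 3′ on the gene's strand. Capitals mark TTTGAA and CCAAT on either strand (TTCAAA and ATTGG on the opposite one). The first 4 are rule or mitotic genes picked because their windows hold both elements, and Bub1 is a mitotic gene whose window holds no TTTGAA. Motifs did not overlap in these windows, which were Cdc20 at chr4:118437353-118437493 (minus strand), Top2a at chr11:99024190-99024339 (minus strand), Mki67 at chr7:135716380-135716529 (minus strand), Cdk1 at chr10:69352939-69353062 (minus strand), Bub1 at chr2:127831866-127832009 (minus strand) and, for the replication gene Rrm2, chr12:24708104-24708240 (plus strand).
Cdc20: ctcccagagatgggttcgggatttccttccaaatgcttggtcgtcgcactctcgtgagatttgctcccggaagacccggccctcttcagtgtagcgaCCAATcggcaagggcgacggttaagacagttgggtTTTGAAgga
Top2a: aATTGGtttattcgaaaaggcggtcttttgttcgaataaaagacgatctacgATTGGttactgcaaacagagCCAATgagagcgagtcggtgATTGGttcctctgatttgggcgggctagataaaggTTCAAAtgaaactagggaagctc
Mki67: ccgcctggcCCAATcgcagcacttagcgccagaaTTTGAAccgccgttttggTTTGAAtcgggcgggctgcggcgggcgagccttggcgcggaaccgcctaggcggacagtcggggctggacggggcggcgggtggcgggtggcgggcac
Cdk1: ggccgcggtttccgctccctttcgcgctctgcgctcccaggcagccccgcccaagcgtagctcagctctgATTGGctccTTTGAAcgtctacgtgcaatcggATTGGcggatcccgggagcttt
Bub1: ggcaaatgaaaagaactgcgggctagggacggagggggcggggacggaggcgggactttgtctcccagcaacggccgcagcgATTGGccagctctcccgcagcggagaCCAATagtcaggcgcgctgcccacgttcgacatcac
Rrm2: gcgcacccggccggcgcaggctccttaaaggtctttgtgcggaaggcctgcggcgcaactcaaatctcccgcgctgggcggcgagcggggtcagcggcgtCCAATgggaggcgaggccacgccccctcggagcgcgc
The Cdc20, Top2a, Mki67 and Cdk1 windows each held TTTGAA and CCAAT, and the Bub1 and Rrm2 windows held CCAAT and no TTTGAA. The mitotic genes Ccnb1, Ccnb2, Ube2c and Cenpe, not printed, also had no TTTGAA in windows cut the same way. Of these, Ccnb2 and Ube2c held it only outside the cut window. Kif11, also not printed, held both elements.

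Counted over whole windows of 250 bases before to 50 after the start, 11 of the 12 rule genes matched a RefSeq symbol and had 12 promoters, of which 9 held TTTGAA. Of 75 mitosis genes outside the rule, 63 matched, and 62.3% of their 69 promoters held it. Of 42 DNA replication genes, 36 matched, and 16.3% of their 43 promoters held it, beside 17.9% of all 32851 promoters. Among all 4 sets, CCAAT stood in 83.3%, 72.5%, 60.5% and 37.4%, in the same order. An E2F-type site, TTTCCCGC or TTTGGCGC on either strand, stood in 0%, 2.90%, 25.6% and 1.56%. These are matches of letters only. They describe the windows and do not show binding.

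Genes of DNA replication were higher in members. The 42 genes summed to 3989 CPM in FGR members and 622 CPM in other FGR microglia, and to 3783 CPM in Control members and 742 CPM in other Control microglia. The ratio to others was 8.06 in FGR and 6.77 in Control for the high run, and 3.50 and 2.50 for the low run. Of the genes with 100 CPM in other microglia, 2 of 2 in FGR and 2 of 3 in Control were past the limit as higher, beside the 2.85% and 1.49% of all genes at that level. Pcna, the sliding clamp of DNA polymerase, had 353 CPM in FGR members and 102 CPM in other FGR microglia, and 238 CPM in Control members and 119 CPM in other Control microglia. Its intervals of the ratio were 2.76 to 4.31 in FGR and 1.54 to 2.54 in Control. Rrm2, which makes deoxynucleotides, had 29 UMIs in 11 FGR members and 41 UMIs in 12 Control members, and 0.07 CPM in other FGR microglia and 0.30 CPM in other Control microglia. Mcm5, a subunit of the replicative helicase, stayed under 100 CPM, with 59.6 CPM in FGR members and 49.6 CPM in Control members.

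Members differed in how much replication RNA they held. Per 10000 UMIs, the high run held a median of 46.0 replication UMIs in FGR (6.82 to 112) and 37.3 in Control (5.21 to 125). In FGR, 15 of 17 cells and in Control 16 of 23 cells stood above the 99th percentile of other microglia, which was 19.5 in FGR and 21.6 in Control. The low run held 3 such cells in each library, so a few of its cells carried replication RNA with few of the 12 genes. The same measure was high in some microglia that the rule left out. At least 20 replication UMIs were read in 20 other FGR microglia (0.242%) and 23 other Control microglia (0.220%), beside 17 of 29 FGR members and 14 of 39 Control members.

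**Figure D3:**
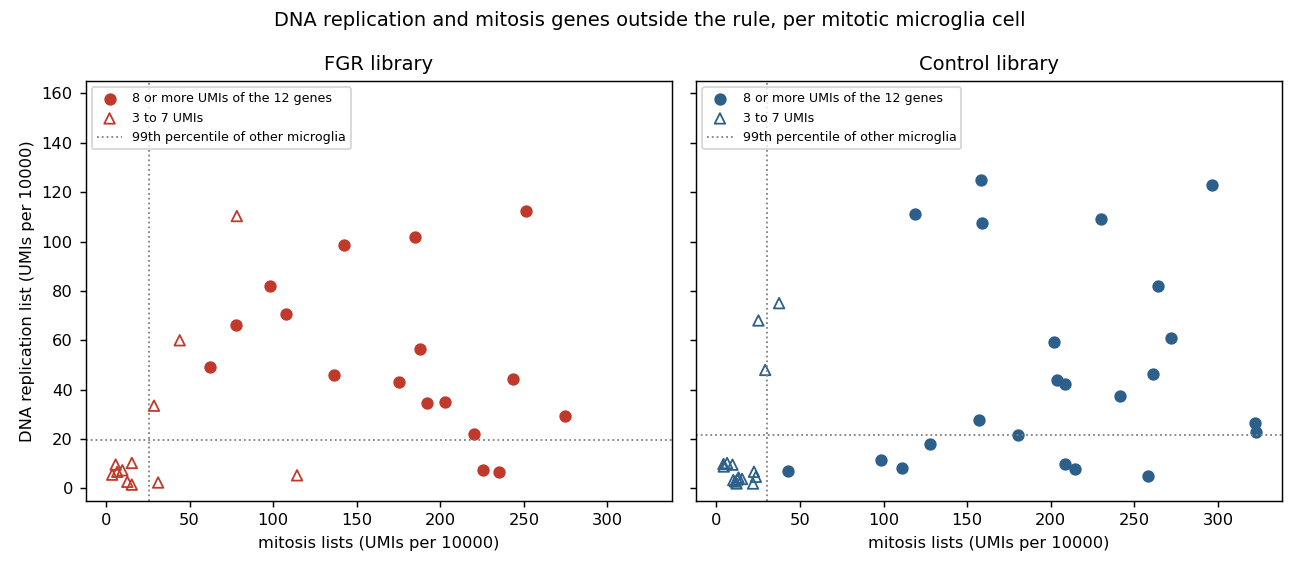
Replication list against the 75 mitosis genes (both as UMIs per 10000) for each mitotic microglia, FGR library left and Control library right; filled circles hold 8 or more UMIs of the 12 genes and open triangles 3 to 7, and dotted lines are the 99th percentile of other microglia. All filled circles lie right of the vertical line, while 2 FGR and 7 Control circles lie below the horizontal line.

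High-run cells with little replication RNA held few histone UMIs in FGR, and in Control the ranges overlapped. In FGR, the 2 high-run cells at or below that percentile held 8 and 10 UMIs of 16 clustered histone genes, and the other 15 held 23 to 193 (median 111). In Control, the 7 such cells held 0 to 23 (median 6) and the other 16 held 5 to 286 (median 54). Both FGR cells held much RNA of the late genes Ccnb1, Cdc20, Plk1, Cenpe and Cenpa, with 37 and 17 UMIs. In Control the 7 cells ranged from 0 to 40 late UMIs. At least 10 late UMIs were read in 7 FGR and 13 Control members, and 10 or more UMIs of Mcm5, Pcna, Rrm2, Pclaf and Tyms in 10 FGR and 8 Control members. Only 2 FGR and 4 Control members had both, and 14 FGR and 22 Control members had neither. Position in the cycle was not called.

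Clustered histone genes, most of whose transcripts end in a stem-loop instead of a poly(A) tail and are caught only in part by poly(A) priming, were higher in the high run, with a log2 ratio to others of 2.91 in FGR and 3.59 in Control. The 16 genes summed to 6914 CPM in FGR members and 1369 CPM in other FGR microglia, and to 4390 CPM in Control members and 561 CPM in other Control microglia. In the low run the ratio to others was 0.714 (0.569 to 0.886) in FGR and 1.29 (1.02 to 1.61) in Control. The FGR to Control ratio of this sum was 1.58 (1.46 to 1.70) in members and 2.44 (2.41 to 2.48) in other microglia. Hist1h1b, the linker histone H1.5, was read in 17 of 17 high-run FGR cells with 1 to 55 UMIs (median 34) and in 16 of 23 high-run Control cells with up to 82 UMIs (median 7). It had 2180 CPM in FGR members and 7.59 CPM in other FGR microglia, and 911 CPM in Control members and 1.44 CPM in other Control microglia. Hist1h1c, another linker histone gene, had 451 CPM in FGR members and 397 CPM in other FGR microglia, and 280 CPM in Control members and 85.5 CPM in other Control microglia. Members stood above others for Hist1h1c in Control (ratio 3.28, 2.59 to 4.09) and near them in FGR (1.14, 0.929 to 1.37). These genes have close copies, and the sources used here do not say how reads were split between copies, so single histone genes are uncertain.

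Chromatin and condensation genes were higher in members too. The 18 genes summed to 8719 CPM in FGR members and 1524 CPM in other FGR microglia, and to 9013 CPM in Control members and 1563 CPM in other Control microglia, and 3 of 3 with 100 CPM in other microglia were past the limit as higher in each library. Hmgb2, a DNA-bending protein, was 8.33 times (7.57 to 9.16) and H2afz, the histone variant H2A.Z, 5.71 times (5.18 to 6.29) the level of others in FGR. In Control the ratios were 12.7 (11.7 to 13.9) and 4.89 (4.47 to 5.35). Smc4 and Smc2, subunits of condensin, had ratios of 25.1 and 16.8 in FGR and of 23.0 and 18.2 in Control.

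Several inhibitors of cyclin-dependent kinases were also higher in members. Cdkn1a, which encodes p21 (chr17:29090976-29100727, plus strand), had 430 CPM in FGR members and 117 CPM in other FGR microglia, and 986 CPM in Control members and 102 CPM in other Control microglia. The ratios were 3.68 (2.99 to 4.48) in FGR and 9.70 (8.57 to 10.9) in Control. In the high run, Cdkn1a had 0 to 25 UMIs per cell in FGR (median 2, read in 13 of 17 cells) and 0 to 27 in Control (median 11, read in 21 of 23 cells). In the low run it stood at 412 CPM in FGR (35 UMIs, read in 7 of 12 cells, median 2) and 398 CPM in Control (44 UMIs, read in 6 of 16 cells, median 0), and 29 of those 44 Control UMIs came from 1 cell. Cdkn2c, encoding p18, had ratios of 11.8 (8.35 to 16.3) in FGR and 15.6 (11.8 to 20.2) in Control, with 40 of 40 UMIs in FGR and 61 of 62 in Control in the high run. Cdkn2d, encoding p19, had ratios of 9.59 (6.63 to 13.5) and 10.7 (7.40 to 15.1). Cdkn1b, encoding p27, was not past the limit, at 1.65 (1.20 to 2.23) in FGR and 0.926 (0.610 to 1.35) in Control. Over the whole growth arrest list of 17 genes, the sum in members was 0.809 of that in others in FGR and 0.914 in Control.

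**Figure D4:**
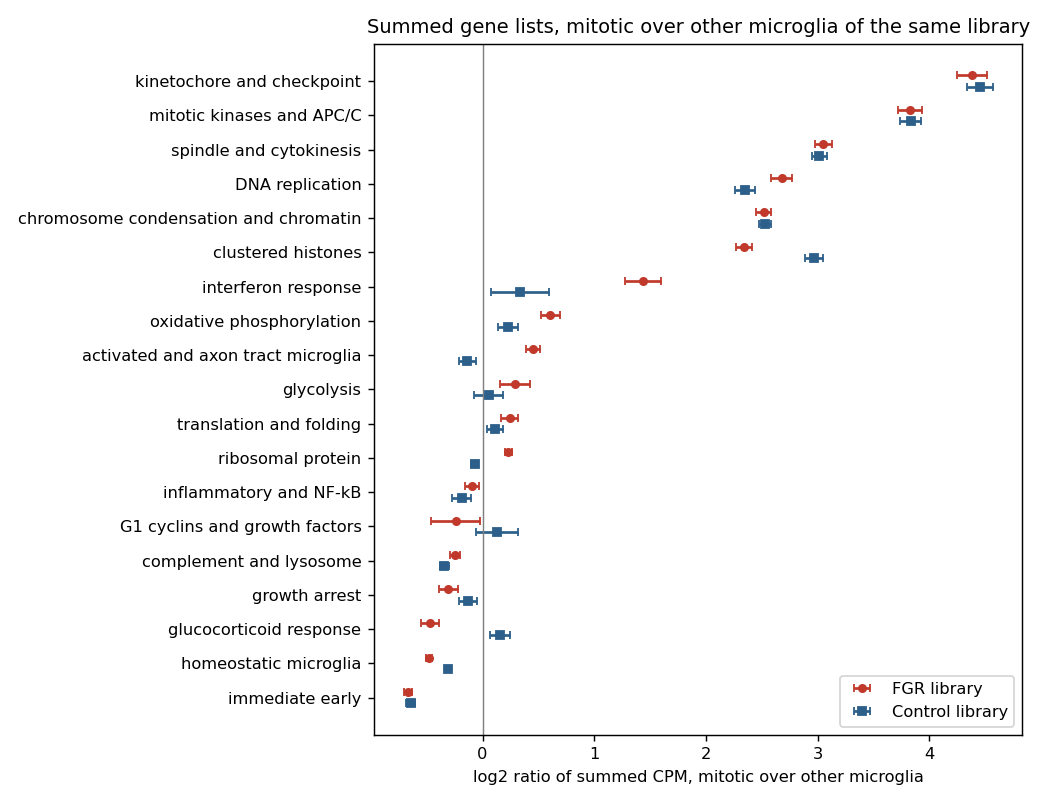
Log2 ratio of the summed CPM of 19 gene lists, mitotic over other microglia, with 95% intervals for counting error; circles are FGR and squares Control. The 6 cell cycle lists lie between 2.34 and 4.45, interferon genes lie at 1.44 in FGR and 0.34 in Control, and homeostatic and immediate early genes lie below 0 in both libraries.

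Genes of the surveying, homeostatic microglia summed to a lower level in members. The 20 genes summed to 47207 CPM in FGR members and 65956 CPM in other FGR microglia, and to 50041 CPM in Control members and 62075 CPM in other Control microglia. CPM are shares of a cell's RNA, and members held more UMIs per cell, so a lower share need not be fewer molecules. All 20 had 100 CPM in other microglia of both libraries, and 5 in FGR and 0 in Control were past the limit as lower, beside the 3.41% in FGR and 0.713% in Control of all genes at that level. The sum of the high run was 0.677 of that of other microglia in FGR and 0.750 in Control. The median log2 ratio was −0.50 in FGR and −0.27 in Control, while that of all measured genes was 0.02 and 0.03. P2ry12, the purinergic receptor of process motility, had 1299 CPM in FGR members and 2746 CPM in other FGR microglia, and 2244 CPM in Control members and 3419 CPM in other Control microglia. P2ry13, a related receptor, had 136 CPM in FGR members and 382 CPM in other FGR microglia, and 383 CPM in Control members and 471 CPM in other Control microglia. Csf1r, the receptor of the growth factors CSF1 and IL-34, differed less, at 0.694 of the level of others in FGR (0.629 to 0.764) and 0.842 in Control (0.776 to 0.912). Tmem119, the gene of the sort, was at 0.693 (0.589 to 0.810) in FGR and 0.922 (0.808 to 1.05) in Control.

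Immediate early genes, which stimulation or handling switches on within minutes, also summed lower. Their sum was 25392 CPM in FGR members and 40418 CPM in other FGR microglia, and 19292 CPM in Control members and 30128 CPM in other Control microglia. These too are shares of RNA. Members held more UMIs per cell (medians 6321 and 4970 in FGR, 7071 and 4677 in Control), so a lower share need not be fewer molecules. Of the genes with 100 CPM in other microglia, 8 of 18 in FGR and 5 of 17 in Control were past the limit as lower, beside the 3.41% in FGR and 0.713% in Control of all genes at that level. For the high run alone that sum was 0.664 of the level of others in FGR and 0.583 in Control. Fos had 2772 CPM in FGR members and 4304 CPM in other FGR microglia, and 908 CPM in Control members and 1990 CPM in other Control microglia. Of the 5 genes lower in both libraries, 3 stood on this list: Rgs1, which limits G-protein signalling, Zfp36, which speeds decay of AU-rich mRNA, and Ier2. The other 2 were the collagen gene Col27a1 and Ecscr. Ier2 had 281 CPM in FGR members and 812 CPM in other FGR microglia, and 489 CPM in Control members and 873 CPM in other Control microglia.

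Lists of cell growth differed less than those of the cell cycle. Ran and Ranbp1, which steer nuclear transport and spindle assembly, had ratios of 3.04 and 2.91 in FGR and 2.68 and 2.46 in Control, yet the whole translation and folding list had a ratio of 1.18 (1.12 to 1.24) in FGR and 1.08 (1.03 to 1.13) in Control. Ribosomal protein genes had 1.17 (1.15 to 1.20) in FGR and 0.952 (0.931 to 0.973) in Control, and 0 of 24 were past the limit in either library. In FGR that sum was 0.974 in the high run and 1.52 in the low run. Oxidative phosphorylation genes had 1.52 (1.44 to 1.61) in FGR and 1.17 (1.10 to 1.25) in Control, with 3 of 14 past the limit as higher in FGR and 0 of 14 in Control, beside the 2.85% in FGR and 1.49% in Control of all genes with 100 CPM in other microglia. The high run had ratios of 1.46 in FGR and 1.21 in Control. G1 cyclins and growth factors were near others, at 0.848 (0.725 to 0.985) in FGR and 1.10 (0.963 to 1.24) in Control.

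Between the libraries, few genes were past the limit in members. Members held 234881 UMIs in FGR and 282029 in Control, against 44285524 and 52802704 in others. Intervals were therefore wider in members, and the counts of genes past the limit in members and others are not on an equal footing. Of 2118 genes measured in members, 36 (1.7%) were past the limit as higher in FGR and 25 (1.18%) as lower. In other microglia, 57 of 1765 (3.23%) were higher and 28 (1.59%) lower. Measured here means 100 CPM in either library, so a gene that reached it in 1 library only could be past the limit on 1 side only. Scaled to a median ratio of 1, the members gave 46 higher and 13 lower, so that 78.0% of calls were higher, against 59.0% on total counts. Without each gene's highest member cell, an alternative chosen after seeing the data, 27 were higher and 27 lower. The median log2 ratio was −0.08 over all measured genes in members and −0.06 in others. No gene of the mitosis, replication and chromatin lists was past the limit between FGR and Control members. Summed, the FGR to Control ratio in members was 0.865 (0.807 to 0.925) for spindle and 0.840 (0.764 to 0.924) for kinase genes. It was 0.902 (0.803 to 1.01) for kinetochore genes, 1.05 (0.965 to 1.15) for replication and 0.967 (0.912 to 1.03) for chromatin. For the spindle, kinase and kinetochore lists it was 0.786, 0.767 and 0.842 in the high run. In others it was 0.843, 0.843 and 0.947. Of 12 measured clustered histone genes, Hist1h1b (2.39), Hist1h1d (2.19) and Hist1h2ap (2.12) were past it as higher in FGR members and Hist1h2bc (0.379) as lower. Hist1h1d was not past it in the high run alone (log2 ratio 1.05), and Hist1h2ap was not with 5 UMIs required (0.76). The 12 rule genes, by which members and others were divided, had a ratio of 0.853 (0.787 to 0.925) in members and 0.749 (0.671 to 0.836) in others.

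Some immediate early and glucocorticoid response genes were higher in FGR than in Control members, and most were not past the limit. Of 19 measured immediate early genes, 4 were higher and 1, Egr2, lower in FGR members, and 14 were not past the limit. Of the 18 with 100 CPM in Control members, 4 were higher and 1 lower. Egr2 rested on 8 FGR and 32 Control UMIs (ratio 0.300, beside 0.455 in others). Among other alternatives, it was not past the limit with 100 microglial UMIs (log2 ratio −1.65), at most 5% mitochondrial UMIs (−1.69) or in the high run (−1.86). In other microglia 9 of 18 were higher in FGR and 0 lower, from far more UMIs and so with narrower intervals. Of the 17 with 100 CPM in other Control microglia, 8 were higher and 0 lower. Over all measured genes, 1.7% were higher and 1.18% lower in members, and 3.23% and 1.59% in others. The immediate early sum had an FGR to Control ratio of 1.32 (1.27 to 1.37) in members. That ratio was 1.53 (1.46 to 1.60) in the high run and 1.34 in others. Of 9 measured glucocorticoid response genes, 3 were higher and 1, Cdkn1a, lower in FGR members, and in other microglia 7 of 9 were higher and 0 lower. With 100 CPM required in Control, 3 of 7 were higher and 1 lower in members, and 5 of 7 higher and 0 lower in others. The sum of that whole list had an FGR to Control ratio of 1.61 (1.48 to 1.75) in members, 1.63 (1.47 to 1.81) in the high run and 2.49 (2.47 to 2.50) in others. Of the 36 genes higher in FGR members, 34 lay on the same side of 1 in other microglia. There 16 were past the limit, beside 3.23% of all genes measured in others. The share of all measured genes on the same side of 1 is not given here, so the 34 have no background. Dusp1, a phosphatase that turns off MAP kinases and a glucocorticoid target, had 1780 CPM in FGR members and 472 CPM in Control members, a ratio of 3.77, beside 4.73 in others. Tsc22d3, encoding GILZ and also a glucocorticoid target, had 430 CPM in FGR members and 174 CPM in Control members, with ratios of 2.47 in members and 2.97 in others, and was not past the limit with Cenpf left out of the 12 genes. Ddit4 had 2.10 (not past the limit) in members and 5.83 in others, and Fkbp5 had 1.90 (not past it) and 2.09. Fos had 3.05 in members and 2.16 in others, and the chemokine Ccl4 had 3.69 and 2.29, with 387 of its 952 FGR member UMIs in 1 cell.

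Several genes were past the limit in members and not in other microglia. Lpl, lipoprotein lipase, had 57 UMIs in 16 of 29 FGR members and 22 UMIs in 11 of 39 Control members, or 243 CPM in FGR and 78.0 CPM in Control. Its FGR to Control ratio was 3.11 in members and 1.01 in others. The high run had 280 CPM in FGR and 69.9 CPM in Control. It was no longer past the limit without the barcodes above the 95th percentile of UMIs (log2 ratio 0.65), with 2 UMIs enough for a member (0.41) or as a mean over cells (1.06). Cd63, a tetraspanin of late endosomes, had 468 CPM in FGR members and 153 CPM in Control members (ratio 3.07), with 5.98 in the high run and 1.27 in others, and was not past the limit with 2 UMIs enough (log2 ratio 0.53). Control members were themselves past the limit as lower for Cd63 than other Control microglia (log2 ratio −1.33). With 2 UMIs enough they were not (0.065). Lyz2, lysozyme, had 409 CPM in FGR members and 95.7 CPM in Control members (ratio 4.27), with 61 of 96 FGR UMIs in 1 cell, and 1.44 in others. The differences of these ratios between members and others were not tested.

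Interferon genes were spread unevenly over the members. At least 1 UMI was read in 28 of 29 FGR members and 31 of 39 Control members. The 16 genes summed to 1418 CPM in FGR members and 440 CPM in Control members, and to 524 and 348 CPM in other microglia of FGR and Control. Of the 333 UMIs in FGR members, 89 came from a single cell of the high run. In the high run alone the sums were 1473 CPM in FGR and 460 CPM in Control. Ifi27l2a had 104 UMIs in 10 of 29 FGR members (up to 41 in a cell) and 16 UMIs in 7 of 39 Control members, with a ratio of 7.80 in members and 1.82 in others. Cxcl10, an interferon-induced chemokine, had 94 UMIs in 10 FGR members and 41 UMIs in 7 Control members, with a ratio of 2.75 in members and 7.65 in others, and was not past the limit in members with 5 UMIs required (log2 ratio 1.17).

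Nearly all UMIs of class II antigen presentation genes in FGR members came from 1 cell. A low-run FGR cell held all 82 UMIs of H2-Eb1, all 31 of H2-Ab1, 57 of 58 of H2-Aa and 85 of 87 of Cd74 among the FGR members. H2-Eb1 was at 0 UMIs in Control members. In the high run H2-Eb1 had 0 CPM in FGR and Control, and Cd74 had 6.67 CPM in FGR and 5.83 CPM in Control.

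Among the genes lower in FGR members was the kinase inhibitor Cdkn1a. Of the 25, 20 lay on the same side of 1 in others and 2 were past the limit there, beside 1.59% of all genes measured in others. The share of all measured genes on the same side is not given here. Their median log2 ratio was −0.08 in members and −0.06 in others, so the 20 have no background. Cdkn1a had 430 CPM in FGR members and 986 CPM in Control members, a ratio of 0.436, beside 1.15 in others, and 0.323 in the high run. With 2 UMIs of the 12 genes enough for a member, it was no longer past the limit, at −0.64 on the log2 scale. Prkcb, protein kinase C beta, had 9 UMIs in 8 FGR members and 47 UMIs in 22 Control members, a ratio of 0.230, with 0.191 in the high run and 0.971 in others. It was not past the limit with 2 UMIs enough for a member or without the barcodes above the 95th percentile of UMIs (log2 ratio −1.82). Kif21b, a kinesin motor, had 9 UMIs in FGR members and 48 in Control members, a ratio of 0.225, and 0.645 in others. P2ry13 had a ratio of 0.356 in members, 0.368 in the high run and 0.812 in others, and was not past the limit with 2 UMIs enough (log2 ratio −0.79). P2ry12 had a ratio of 0.579 in members and 0.803 in others. In the high run alone P2ry12 was not past the limit, at 0.699, nor scaled to a median ratio of 1 (log2 ratio −0.71) or with 2 UMIs enough for a member (−0.66).

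**Figure D5:**
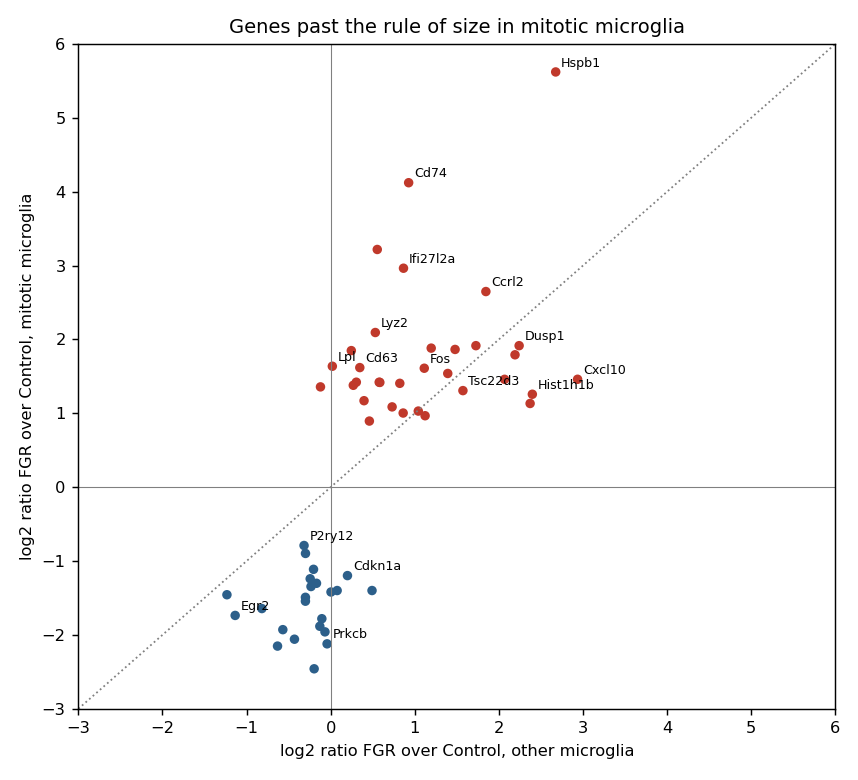
Log2 ratio of FGR over Control in other microglia (x) against mitotic microglia (y) for the genes past the limit in mitotic microglia that had UMIs in both libraries, predicted genes left out; the dotted line marks equal ratios. Dusp1 lies near the line and Cxcl10 below it, while Hspb1 and Cd74, with most of their UMIs in 4 FGR cells and 1 FGR cell, lie highest, and Cdkn1a lies below 0 on y with a ratio of 1.15 on x.

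Genes of activated and axon tract microglia, states known from injured and early postnatal brain, were compared in the same way. Apoe, the lipid carrier of activated and axon tract microglia, had 2200 CPM in FGR and 332 CPM in Control in the high run. Of the 330 FGR UMIs there, 142 and 89 came from 2 cells, and the medians were 2 UMIs per cell in FGR and 1 in Control. Over all members the ratio was 1.43 (not past the limit), with 263 of 493 Control UMIs in a single low-run cell. The 20 genes of activated and axon tract microglia, Apoe included, summed to 7936 CPM in FGR members and 4755 CPM in Control members, a ratio of 1.67 (1.56 to 1.79). They summed to 7353 CPM in the high run of FGR and 3025 CPM in that of Control, a ratio of 2.43 (2.19 to 2.70), and to 5804 and 5224 CPM in other microglia of FGR and Control. Lgals3, galectin-3, had 8 UMIs in 4 FGR members and none in Control members.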

How the data were processed

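The deposited files are matrices of UMI counts per gene and barcode, 1 per library, made by the authors by 10x 3′ capture. The file headers name Cell Ranger 4, and the submitters' processing notes name Cell Ranger 3.0, Seurat 5.0 and mm10; no annotation or strand setting was stated. Of 32285 features, 32235 matched GENCODE M21 IDs. The matrices hold all barcodes, 1935841 in FGR and 1961707 in Control, with 50833332 and 58988805 UMIs. Members and lists were chosen with earlier results of these data known.

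Counts were summed over members and over other microglia of a library (234881 and 44285524 UMIs in FGR, 282029 and 52802704 in Control), scaled to CPM. Ratios have exact conditional 95% intervals, shares Clopper-Pearson and sums Poisson intervals; 1 library per group and members chosen from the same counts allow no test. A gene was past the limit at 100 CPM or more in either group with the interval beyond 1.5-fold. The comparison of FGR members with others was checked on Poisson counts drawn from the summed profile of other FGR microglia. Those counts hold no spread between cells, so the check does not cover sums that rest on 1 or a few cells. A floor of 3 UMIs stood for 0. Thinning drew 1500 UMIs per cell. No doublet caller was run. Named genes were the 12 rule genes, the 15 largest and 10 smallest ratios past the limit in both libraries, up to 5 per list, the 12 largest and 12 smallest FGR to Control ratios, and genes chosen by role (such as Pcna, Csf1r and Cdkn1a), leaving out predicted, other ribosomal and sex-linked genes except Tsc22d3; Hist1h1c was added after its values were seen. Alternatives changed the rule, depth, filters, minimum level, fold, scaling and free RNA. Promoters and motifs came from RefSeq tables. Python 3.11.15, numpy 2.4.6, scipy 1.17.1, pandas 2.3.3 and matplotlib 3.10.9 were used.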

Additional observations from a re-analysis of the deposited data

How the results depend on the processing

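No paired analysis was possible because each group is 1 library, and for the same reason no replicate could be left out. On total counts, 0.349% of FGR and 0.371% of Control microglia were mitotic, and genes past the limit were 216 higher and 55 lower (FGR members over others), 188 and 12 (Control members over others) and 36 and 25 (FGR over Control). With 2 UMIs enough, the shares were 0.832% in FGR and 1.08% in Control, with 87 higher and 6 lower in FGR and 55 and 0 in Control. With 5 or more, the shares were 0.253% in FGR and 0.219% in Control, with 273 higher and 72 lower genes in FGR and 307 and 62 in Control. With 8 or more, a limit chosen after seeing the data, the shares were 0.205% and 0.219%, with 325 genes higher in FGR and 307 higher and 62 lower in Control. The 6 markers gave a Control share of 0.248% and 45 lower genes. Control's lower genes were 27 after thinning, 6 without the top 5% of cells by UMIs, 36 without Top2a, 29 without Cenpf and 20 with free RNA subtracted. With no minimum level the counts were 745 and 91 in FGR, 676 and 28 in Control and 61 and 60 between libraries. At 50 CPM they were 391 higher in FGR, 333 and 19 in Control and 43 lower between libraries. Beyond 2-fold, 6 were lower in FGR, 0 in Control, and 19 and 4 differed between libraries. Lower genes between libraries were 39 with 100 microglial UMIs and 13 scaled to a median ratio of 1. Without each gene's highest member cell, also chosen after seeing the data, lower genes were 101 in FGR and 34 in Control. Between libraries they were then 27 higher and 27 lower. The log2 ratio of Cd63 in Control, -1.33, was 0.065 with 2 UMIs. That of Cd74 in FGR, 3.72, was -2.42 with 5 UMIs, -2.48 after thinning, -2.45 with 6 markers, -2.17 with 8 UMIs and -1.68 without its highest cell. The cause was not tested in any of these, except that fewer or more genes enter at another minimum level and Cd74 rested on 1 cell. Of named genes past the limit, 30 of 88 in FGR, 24 of 70 in Control and 13 of 36 between libraries stayed past it under every alternative tried.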
